A study of Mus musculus with 36 samples.

Results

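The genes of the cytosolic ribosome were followed across mouse skeletal muscles that carried or lacked the estrogen-related receptors (ERRs), nuclear receptors that drive genes of oxidative metabolism. A gene was taken as a member when its symbol was that of a protein of the large subunit (Rpl with a number, Rplp0, Rplp1 or Rplp2) or of the small subunit (Rps with a number, or Rpsa), with an optional final a, x or l. Of 83 such rows, 80 of the 17873 genes with a value held one: 49 for the large subunit and 31 for the small subunit. Values in every library were held by 78 of them, 47 large and 31 small, and the same 78 passed the filter on low signals and were tested. The 2 others were Rpl39l, with a value in 16 libraries, and Rpl32l, annotated as a processed pseudogene, with a value in 3. No value was held for Rpl6l, Rpl10l and Rps4l.

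The series holds 36 RNA libraries from the extensor digitorum longus (EDL), a fast muscle of the leg, and from the soleus, a slow one, in 12 groups of 3. The mice were males aged 1 year on the C57BL/6JBom background, in which floxed receptor genes were deleted by Cre recombinase driven by the human alpha-skeletal actin (HSA) promoter, which is active in muscle fibres. Cells in the muscle that do not use that promoter keep the receptor genes. The 3 knockout classes were ERRalpha mKO (muscle knockout), ERRbeta/ERRgamma dmKO (double muscle knockout) and ERRalpha/ERRgamma dmKO, each set against its own wild-type (WT) group in each muscle. The column names mark the wild types FX- and the knockouts FXp, read here as floxed without and with Cre. All groups would then carry floxed alleles, the wild types included.

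As background, a cytosolic ribosome joins a small subunit, which reads the messenger RNA, to a large subunit, which forms the peptide bond. Each protein is needed in a fixed ratio to the others, and their messages usually share a start made of pyrimidines, the 5-prime terminal oligopyrimidine (TOP) element, through which the kinase mTOR sets how much of them is translated. In striated muscle the large subunit can hold RPL3L in place of the protein made from Rpl3, a core protein that lies near the site of peptide bond formation. Many processed pseudogenes resemble the genes of this family, so reads can be hard to assign.

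The starts of the genes are shown because the TOP pattern is a feature that the choice of members did not use. The sequences run from 10 bases before the annotated RefSeq start to 20 bases from it, 5-prime to 3-prime on the strand of the gene, in GRCm38.p6. Capitals mark a C followed by at least 4 bases that are C or T and beginning within 5 bases of the start. The first 4, from genes with rises described below, hold such a run, and the last 4, from genes also described below, do not. The last 4 include Rpl4 and Rpl10. In the EDL labelled ERRalpha/ERRgamma dmKO these rose more (0.84 each) than any of the first 4 (0.61 to 0.68). The rest of the last 4, Rps13 (0.57) and Rpl3l (-0.06), stood below all of the first 4. Whether genes with and without a run differ in their change was not tested.
Rps27: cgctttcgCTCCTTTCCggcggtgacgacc
Rpl28: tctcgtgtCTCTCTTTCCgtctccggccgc
Rpl14: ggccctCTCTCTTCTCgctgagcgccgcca
Rpl13a: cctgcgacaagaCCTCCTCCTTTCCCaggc
Rpl4: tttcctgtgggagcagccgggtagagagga
Rpl10: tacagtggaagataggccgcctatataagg
Rps13: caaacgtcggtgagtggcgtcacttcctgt
Rpl3l: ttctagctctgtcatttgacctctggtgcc
They lie, in that order, at chr3:90213629-90213658 (minus strand), chr7:4792955-4792984 (plus), chr9:120571507-120571536 (plus), chr7:45128726-45128755 (minus), chr9:64173377-64173406 (plus), chrX:74270806-74270835 (plus), chr7:116334171-116334200 (minus) and chr17:24727816-24727845 (plus), the last being one of the annotated starts of Rpl3l.

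A RefSeq start was found for 60 of the 80 genes, and none was found for the other 20, which include Rpl3 and Rps20. A run within 5 bases of the start was present in 48.3% of the 60 genes and in 21.2% of the 27025 genes of the table. With the C exactly at the annotated start, the shares were 23.3% and 3.01%. Rpl32l, annotated as a processed pseudogene, is among the genes with the C there. Over the 58 tested genes with a start, which leave it out, that share was 22.4%. In the window of 250 bases before to 50 bases after the start, searched on both strands, the ETS-factor core CCGGAAG was found in 41.7% of the 60 genes and in 9.93% of all genes. Over the 10249 genes of the table that passed the signal filter, that share was 18.9%. AAGATGG, a YY1-type core, was found in 15% against 7.28%. The ERR element TCAAGGTCA was found in 0 of the 60 genes and in 0.466% of all, and its core AAGGTCA, which lies inside the longer element, in 6.67% and 5.38%. A match describes these letters in this window and is neither a binding site nor a cause. Only annotated starts were searched, so an absent run does not show that a message lacks a TOP element.

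The deposited signals are on a log2 scale that carries no read counts, so the depth is unknown, and 13667 to 14951 genes had a value in a library. Markers of skeletal muscle fibre (Acta1, Ckm, Ttn, Des and 8 others) had a value in every group, 12 of 12. Esrra, the gene of ERRalpha, fell by 2.23 on the log2 scale in EDL labelled ERRalpha/ERRgamma dmKO and by 0.57 in soleus (limma, Benjamini-Hochberg adjusted p 3.54e-15 and 0.000840). It did not pass the test in either muscle labelled ERRalpha mKO, with changes of -0.19 in EDL and 0.33 in soleus. Esrrg, the gene of ERRgamma, was higher in all 6 knockout comparisons, also where the label names ERRgamma: by 0.51 and 1.21 in EDL and soleus ERRalpha/ERRgamma dmKO (adjusted p 0.0154 and 9.94e-07) and by 0.48 and 1.09 in ERRbeta/ERRgamma dmKO (0.260 and 4.99e-05). Esrrb, the gene of ERRbeta, fell by 1.60 in EDL ERRalpha/ERRgamma dmKO (adjusted p 9.63e-07), whose label does not name it, and did not pass in either muscle labelled ERRbeta/ERRgamma dmKO (-0.18 and 0.28). These are whole-gene signals and the deleted exons are not given in the labels, so the groups are named as labelled. In bulk tissue, fewer cells of a type and less RNA per cell cannot be told apart.

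Several libraries stood apart in markers of other cells. Replicate 1 of the soleus labelled ERRbeta/ERRgamma dmKO had a summed linear signal of 14 leukocyte markers of 396, against 43.5 and 136 in the other knockout libraries and 33.0 to 116 in its wild types. Its macrophage gene Cd68 stood at 5.07, against -0.03 and 1.70, and the pan-leukocyte gene Ptprc at 1.66, against -2.09 and -0.17. The mean ribosomal protein signal in that library was 7.56, against 7.26 and 7.05 in the other knockout libraries. The count of called genes, the median change and the Rpl3l minus Rpl3 shift of that group are given with and without it below. So is the count for its difference from the ERRalpha/ERRgamma change. Other results on that group are given with it only, and the part of the leukocyte markers in them was not tested.

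In the ERRalpha/ERRgamma groups the summed signal of 5 red blood cell markers was 4331 in EDL wild-type replicate 2, 2414 in EDL knockout replicate 3 and 3927 in soleus wild-type replicate 2, against 348 to 558 in the other EDL libraries and 675 to 907 in the other soleus libraries of that class. The 6 Schwann cell markers summed to 138 in soleus wild-type replicate 3, against 18.8 to 31.4 in the other soleus libraries of the class. The 7 fat markers summed to 683 in soleus wild-type replicate 1, against 258 to 470. The counts of ribosomal protein genes that rose in this class, given below over all libraries, are also given there without each of these 5 libraries, and the part of these markers in them was not tested.

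The signals of the 78 tested genes ran from a mean of 8.95 on the log2 scale for Rplp1, an acidic protein of the stalk that recruits elongation factors, to 2.72 for Rps6, the small-subunit protein that S6 kinases phosphorylate. Next to the top were Rps14, of the small-subunit platform, at 8.85 and Rpl23a, which lies at the exit of the peptide tunnel, at 8.76. Next to the bottom were Rps15a at 4.39 and Rpl21 at 4.56. No source used here says whether signals were divided by gene length. Among 1059 genes found in only a few libraries the lowest signal changed by -0.80 (SE 0.02) per doubling of exon length, the behaviour of values scaled by length. The order of genes also depends on how reads shared with pseudogenes were assigned: of 300 rows for pseudogenes of these genes, 2 held a value, Rpl31-ps12 in 36 libraries and Rpl34-ps1 in 13. Rpl21 has 15 such rows, Rpl23a 13, Rps15a 7 and Rps6 3, so the level of each is uncertain. The copies Rpl39l and Rpl32l, found in few libraries, had means of -2.42 and -2.68 where they held a value. Rpl32l is annotated as a processed pseudogene. It became a member by its symbol and is not among the 2 pseudogene rows with a value.

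The broadest change was in the EDL labelled ERRalpha/ERRgamma dmKO, where ribosomal protein genes of both subunits rose together. Of the 78 genes, 72 rose and 0 fell (limma, adjusted p under 0.05), and 75 had an unadjusted p under 0.05. Over all 13358 genes tested, 11.1% rose and 6.95% fell. The median change was 0.50 on the log2 scale, a 1.41-fold rise, against 0.13 over all genes, with single genes between -0.06 and 0.84. In 75 of the 78 genes the 3 knockout libraries all lay above the 3 wild types, against 26.4% of all genes. The large subunit gave 43 of the 72 genes, out of 47, and the small subunit 29, out of 31, with medians of 0.50 and 0.47. Without either library with high red blood cell markers, wild-type replicate 2 or knockout replicate 3, 65 genes rose.

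Rpl4 (chr9:64173375-64178666, plus strand), whose protein reaches into the tunnel through which the new peptide leaves, changed with the lowest p. Its log2 signal was 8.42, 8.37 and 8.42 in the wild types and 9.28, 9.20 and 9.26 in the knockouts. All 3 knockout values exceeded all 3 wild-type values by more than the spread within either group, and the rise was 0.84 (SE 0.06, adjusted p 2.08e-11, 1.79-fold). Rpl10 (chrX:74270812-74273135, plus strand), one of the last proteins to join the large subunit, read 6.97, 7.02 and 7.09 in the wild types and 7.89, 7.89 and 7.81 in the knockouts, without overlap. It rose by 0.84 (SE 0.09, adjusted p 1.40e-08). As printed above, the annotated start of neither gene holds the pyrimidine run, and the starts in use in these muscles were not read.

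Rps20 (chr4:3831334-3835665, minus strand), a protein of the head of the small subunit, read 5.48, 5.63 and 5.44 in the wild types and 6.20, 6.30 and 6.32 in the knockouts, and rose by 0.76 (SE 0.09, adjusted p 8.23e-08). Rps27 (chr3:90212522-90213651, minus strand), a zinc-finger protein of the small subunit, read 8.54, 8.28 and 8.38 in the wild types and 9.09, 9.14 and 9.02 in the knockouts. Its wild types spread more than those of the genes above, and the groups still did not overlap (0.68, SE 0.11, adjusted p 1.85e-05). Rpl28 (chr7:4792874-4795066, plus strand), a large-subunit protein of eukaryotic ribosomes, read 7.73, 7.79 and 7.78 against 8.38, 8.45 and 8.42, a rise of 0.65 (SE 0.07, adjusted p 1.03e-07). Rps27 and Rpl28 are 2 of the genes whose annotated start carries the run.

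Rises below the median included those of Rplp0, the base of the stalk, by 0.39 (adjusted p 5.75e-05), from 8.27, 8.32 and 8.35 to 8.73, 8.73 and 8.64. Rpsa, a small-subunit protein also known as the laminin receptor precursor, rose by 0.35 (adjusted p 0.0107), from 7.38, 7.41 and 7.47 to 7.74, 7.79 and 7.78. The 6 genes that did not pass the test were Rps27l, the p53-induced copy of Rps27 (0.29, adjusted p 0.0590, and called at 0.37 without knockout replicate 1), Rpl21 (0.28), Rpl36 (0.23), Rpl3 (0.22), Rps6 (0.11) and Rpl3l (-0.06). They hold both genes of the Rpl3 pair.

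**Figure D1:**
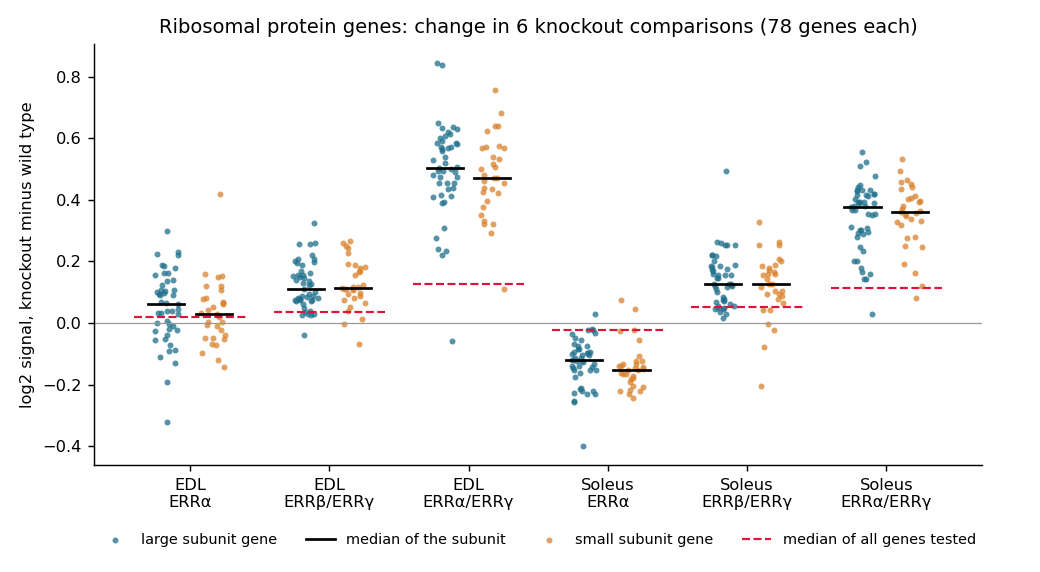
Change of each tested ribosomal protein gene (log2, knockout minus wild type) in the 6 knockout comparisons, with a point for each gene, large-subunit and small-subunit genes in different colours, a black line at the median of each subunit and a dashed line at the median of all genes tested. The genes lie around 0.50 in EDL ERRalpha/ERRgamma dmKO and around 0.37 in soleus, and nearer 0 in the other 4 comparisons.

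In soleus labelled ERRalpha/ERRgamma dmKO, 56 of the 78 genes rose and 0 fell, where 6.84% of all 13385 genes tested rose and 5.86% fell. A further 10 had an unadjusted p under 0.05 only, for 66 in all. The median change was 0.37 (1.29-fold) against 0.11 over all genes, the range was 0.03 to 0.56, and every one of the 78 changes was positive. In 58 genes the groups did not overlap, against 21.7% of all genes. The count fell to 35 without wild-type replicate 2, the library with high red blood cell markers, and to 36 without knockout replicate 3. It was 41 without wild-type replicate 3, with the high Schwann cell markers, and 60 without wild-type replicate 1, with the high fat markers.

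The largest rise in soleus was that of Rpl13a (chr7:45125558-45128761, minus strand), a large-subunit protein also known for leaving the ribosome in the GAIT complex of inflamed cells. It read 8.30, 7.91 and 8.11 in the wild types and 8.47, 8.73 and 8.78 in the knockouts, a rise of 0.56 (SE 0.11, adjusted p 0.000681). Rps14 read 9.22, 8.92 and 9.08 against 9.37, 9.63 and 9.80 and rose by 0.53 (SE 0.11, adjusted p 0.000771). In both genes the groups were adjacent, with the lowest knockout close to the highest wild type.

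Rpl4 had the lowest p in this muscle too, with 8.15, 8.04 and 8.21 in the wild types and 8.68, 8.65 and 8.64 in the knockouts (0.52, SE 0.06, adjusted p 9.43e-07). Rpl14 (chr9:120571444-120574654, plus strand), a large-subunit protein of eukaryotes, read 7.32, 7.16 and 7.24 against 7.76, 7.75 and 7.73 (0.51, SE 0.09, adjusted p 0.000109). Rpl28 read 7.78, 7.70 and 7.87 against 8.27, 8.26 and 8.26 (0.48, SE 0.07, adjusted p 3.47e-05). In these 3 genes the knockout libraries lay close together, all above the wild types. Rplp0 rose by 0.43 (adjusted p 2.41e-05) and Rpsa by 0.34 (adjusted p 0.0193). The Rpsa call was lost without replicate 2 or 3 of the wild types or of the knockouts, at changes of 0.31 to 0.34. The 22 genes that did not pass included Rps6 (0.49, adjusted p 0.269), Rps27l (0.25, called at 0.36 without replicate 1 of either group), Rpl3 (0.23), Rpl3l (0.16), Rps13 (0.08) and Rpl21 (0.03).

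The mean over the 78 genes shows the same groups apart. In EDL it was 7.29 to 7.36 in the ERRalpha/ERRgamma wild types and 7.80 to 7.84 in the knockouts. In soleus it was 7.29 to 7.50 against 7.60 to 7.81. Across the other 8 groups the group means lay between 7.02 and 7.29. The libraries of this class also listed more genes: 14379 to 14835 in EDL knockouts against 14033 to 14376 in wild types, and 14751 to 14951 in soleus knockouts against 14316 to 14624. With each library recentred on its mean over genes found in every library, 65 genes still rose in EDL (median 0.41) and 38 in soleus (median 0.26). Recentring on the median gave 69 (0.44) and 47 (0.30).

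**Figure D2:**
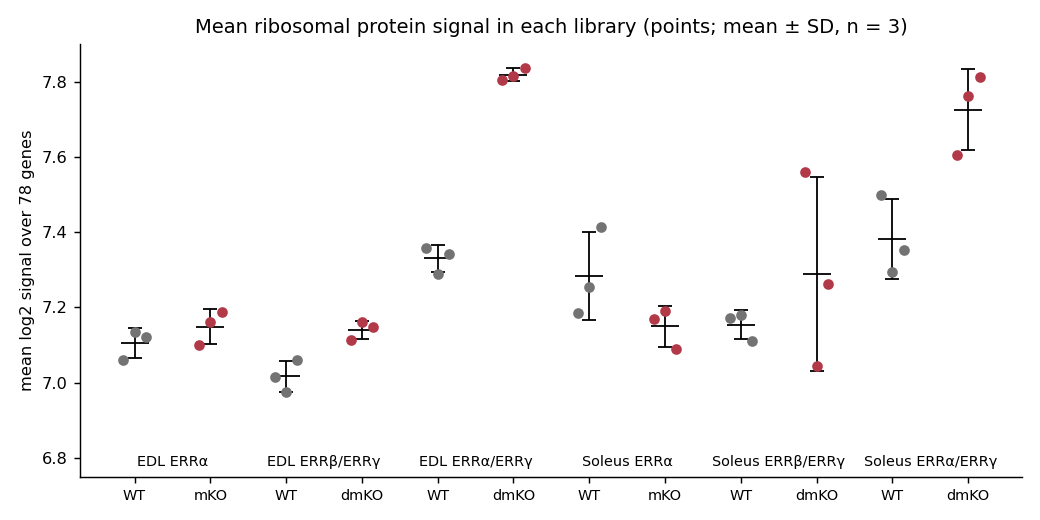
Mean log2 signal of the 78 tested ribosomal protein genes in each of the 36 libraries, by group, with points for libraries and bars for the group mean ± SD (n = 3). The EDL ERRalpha/ERRgamma dmKO libraries lie between 7.80 and 7.84 and replicate 1 of soleus ERRbeta/ERRgamma dmKO at 7.56.

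In the deposited signals, the wild types of the ERRalpha/ERRgamma class were themselves higher than those of the other classes. In EDL the median gene was 0.22 above the ERRalpha wild types, with 75 of 78 genes higher, and 0.32 above the ERRbeta/ERRgamma wild types, with 76 higher. In soleus the medians were 0.10, with 70 genes higher, and 0.25, with 73 higher. Each knockout was compared with its own wild types only, and no source used here says whether the classes were prepared together.

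The difference between muscles in the ERRalpha/ERRgamma change was small for most genes. The median soleus change minus EDL change was -0.15 over the 78 genes and -0.00 over all genes, 9 genes had an unadjusted p under 0.05, and 1 passed the test, where 2.07% of all genes did so in either direction. That gene was Rps13 (chr7:116331505-116334195, minus strand), a small-subunit protein at the interface of the subunits. In EDL it read 7.44, 7.40 and 7.35 in the wild types and 7.95, 8.05 and 7.91 in the knockouts, a rise of 0.57. In soleus it read 8.17, 8.09 and 7.94 against 8.09, 8.13 and 8.23, a change of 0.08 with overlapping groups. The difference of -0.49 (SE 0.13) had an adjusted p of 0.0381 and missed the threshold with no intensity trend and without any 1 of 9 of the 12 libraries, with differences of -0.51 to -0.44. The call stayed only without EDL knockout replicate 3, soleus knockout replicate 3 or soleus wild-type replicate 3. The adjusted p was 0.0645 for Rpl4 (-0.32) and 0.0927 for Rpl10 (-0.41).

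**Figure D3:**
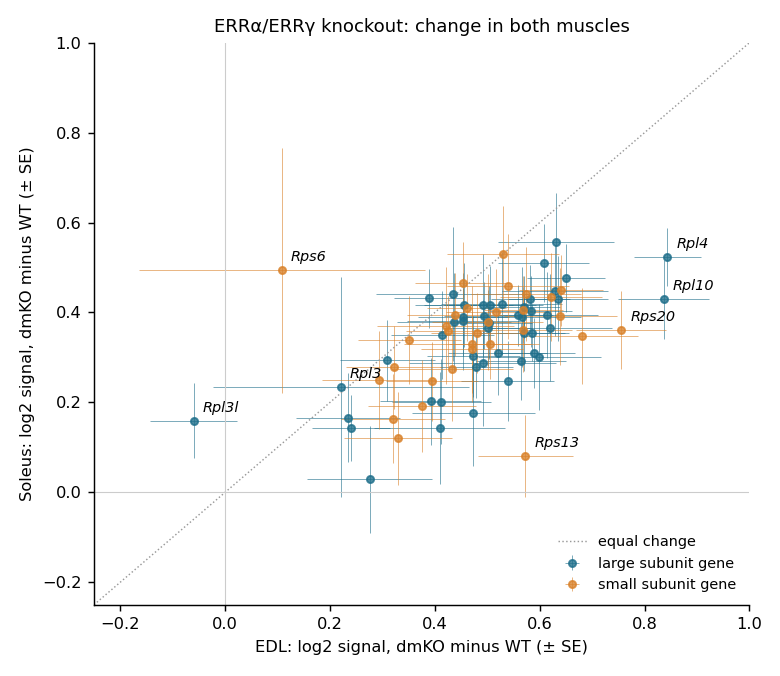
ERRalpha/ERRgamma change of each tested gene in EDL (x, log2) against soleus (y, log2), large-subunit and small-subunit genes in different colours, with bars for the standard error and a dotted line of equal change. Most genes lie below the line, Rps13 furthest from it at 0.57 and 0.08, and Rpl3l is the only gene below 0 in EDL.

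In EDL labelled ERRalpha mKO, 1 gene rose and 0 fell, where 1.82% of all genes rose and 1.46% fell. The median change was 0.04 against 0.02 over all genes, and 10 genes had an unadjusted p under 0.05. The gene was Rpl4, which read 8.46, 8.55 and 8.42 in the wild types and 8.76, 8.75 and 8.82 in the knockouts, without overlap (0.30, SE 0.06, adjusted p 0.00685). Fitted on these 6 libraries alone its adjusted p was 0.0502. Rpl3 changed by -0.32, Rpl3l by -0.13 and Rplp0 by 0.18, none past the test.

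In EDL labelled ERRbeta/ERRgamma dmKO, 0 genes passed limma's test, where 0.218% of all genes did, and 15 had an unadjusted p under 0.05. Small positive values were common all the same, with 75 of 78 changes above 0, a median of 0.11 against 0.03, and 39 genes whose groups did not overlap, against 10.2% of all genes.

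In soleus labelled ERRalpha mKO the values leaned the other way without passing limma's test. No gene was called, where 0.71% of all genes were, and 12 had an unadjusted p under 0.05. The median was -0.14 against -0.02 over all genes, with 3 changes above 0 and 26 genes whose knockouts all lay below the wild types, against 8.99% of all genes. The lowest p was that of Rpl37a, a large-subunit zinc-finger protein (-0.23, adjusted p 0.136), and Rpl3 changed by -0.40.

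In soleus labelled ERRbeta/ERRgamma dmKO, 1 gene rose and 0 fell, where 3.16% of all genes rose and 3.55% fell, and 16 had an unadjusted p under 0.05. It was Rps26 (chr10:128624534-128626747, minus strand), a small-subunit protein where the messenger RNA leaves, at 7.43, 7.39 and 7.34 in the wild types and 8.14, 7.44 and 7.57 in the knockouts (0.33, SE 0.10, adjusted p 0.0389). The highest value is that of replicate 1, the library with the high leukocyte markers. Without that library 0 genes were called and the median change went from 0.13 to 0.00. Without knockout replicate 2, 39 genes were called and the median was 0.26, and without wild-type replicate 2 or 3 none was called. The shares of all genes above belong to the fit on all libraries, and none is given for these fits. Rps26 itself also lost its call without wild-type replicate 1 (0.35). Without knockout replicate 2, Rpl3 (0.90), Rplp0 (0.25) and Rpsa (0.40) were among the genes called. The result for this group therefore rests on single libraries.

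The changes of the classes were also set against each other, with no control library shared. In EDL the ERRalpha/ERRgamma change was larger than the ERRalpha change in 44 genes, where 1.33% of all genes were higher (median 0.47), and larger than the ERRbeta/ERRgamma change in 29, where 2.81% were higher (median 0.37). Rpl4 differed with the lowest p in both, by 0.55 and 0.69. The first count was 21 without wild-type replicate 2 of the ERRalpha/ERRgamma class, 24 without wild-type replicate 2 or knockout replicate 1 of the ERRalpha class, and 27 without wild-type replicate 3 of that class. It was 28, 27 and 27 without ERRalpha/ERRgamma knockout replicates 1, 2 and 3 and 28 without wild-type replicate 3 of that class. The other count was 18 without that same wild type. In soleus the ERRalpha/ERRgamma change exceeded the ERRalpha change in 50 genes, where 1.83% were higher (median 0.51), and the ERRbeta/ERRgamma change in 1, Rpl4 (0.46, adjusted p 0.00583), where 0.322% were higher. The 50 became 29 without wild-type replicate 2 of the ERRalpha/ERRgamma class, 29 without wild-type replicate 3 of the ERRalpha class and 33 without ERRalpha/ERRgamma knockout replicate 3. The 1 became 14 without replicate 1 of the ERRbeta/ERRgamma knockouts.

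The ERRbeta/ERRgamma change did not differ from the ERRalpha change in any of the 78 genes by limma's test. In EDL, where 0.415% of all genes differed by the adjusted p, 1 had an unadjusted p under 0.05. In soleus, where 0.532% of all genes differed by the adjusted p, the median difference was 0.26. There 37 of the 78 had an unadjusted p under 0.05, a looser threshold than that of the share. The soleus count of genes past the adjusted threshold went from 0 to 33 without replicate 2 of the ERRbeta/ERRgamma knockouts. Between muscles, 0 genes differed in the ERRalpha change, with 14 at an unadjusted p under 0.05 and 0.0151% of all genes called. Likewise 0 differed in the ERRbeta/ERRgamma change, with 2 at an unadjusted p under 0.05 and 0.21% of all genes called.

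Other genes of protein synthesis were read from lists. Of 18 translation factors and companions whose messages carry a TOP element, 14 rose and 0 fell in EDL ERRalpha/ERRgamma dmKO (median 0.46), and 7 rose in soleus (median 0.20). In EDL they included Eif3e (0.66) and Eif3h (0.63), subunits of the initiation factor that binds the small subunit, and Btf3 (0.62), which receives new peptides at the ribosome. In soleus they included Rack1 (0.50), a scaffold on the small subunit. Eef1a1, which brings aminoacyl-tRNA to the ribosome and is the form of most tissues, went from 7.69, 8.03 and 7.92 to 8.80, 8.68 and 8.94 in EDL, a rise of 0.92 (adjusted p 0.00161). Eef1a2, the form of adult muscle, rose by 0.45. In soleus they rose by 1.07 and 0.42.

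The lists below are read against the 11.1% of all genes that rose in EDL and the 6.84% that rose in soleus, and differences between lists were not tested. Of 22 other initiation factors, 9 rose in EDL (median 0.21), among them Eif5a (0.60) and the helicase Eif4a1 (0.59), and 1 rose in soleus, Eif5a (0.45). Of 33 assembly factors, 6 rose in EDL (median 0.21), among them Npm1 (0.53) and Wdr12 (0.52). In soleus 1 assembly factor rose, Bop1 (0.52), and 2 fell, Nob1 (-0.47) and Rrp9 (-0.43). Of 19 subunits and factors of RNA polymerase I, which copies ribosomal RNA genes, 2 rose in EDL, Polr1a (0.57) and Polr1c (0.43), and 2 in soleus, Taf1d (0.65) and Polr2e (0.31), a subunit shared by the 3 nuclear polymerases. Of 24 TOR and Myc regulators, 2 rose in EDL, a share below that of all genes, Larp1 (0.42), which binds TOP messages, and Eif4ebp2 (0.31), and Akt1 fell (-0.37). In soleus Eif4ebp2 (0.38) and Akt1s1 (0.26) rose. The EDL counts of polymerase I and TOR genes and the soleus counts of initiation and assembly factors lay near or below the shares of all genes. Rps3a1, a core small-subunit protein whose symbol lies outside the rule, rose in both muscles (0.52 and 0.37), and Rpl36al, a retained copy of a large-subunit gene, rose in EDL (0.76).

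The proteins of the mitochondrial ribosome, which translates the messages of mitochondrial DNA, had the opposite sign. Of 75 genes, 38 fell and 1 rose in EDL (median -0.32), and 34 fell and 2 rose in soleus (median -0.23), where 6.95% and 5.86% of all genes fell. The largest of the named falls were those of Mrpl12 in EDL (-1.57) and Mrpl14 in soleus (-1.33). Subunits of the proteasome, another large complex, rose in 26 of 37 cases in EDL (median 0.34) and 14 of 37 in soleus (median 0.19), with Psmd6 at 0.74 and 0.45. A rise of many genes of a complex was thus seen for the proteasome as well as for the cytosolic ribosome.

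In EDL ERRalpha mKO, where 1.82% of all genes rose and 1.46% fell, the TOP genes Btf3 and Eef1g (both 0.25), Eif5a (0.31) and Polr1a (0.55) rose, Eif4ebp1, an inhibitor of the cap-binding factor, fell by 0.83, 5 of 75 mitochondrial ribosomal genes fell, and 7 of 37 proteasome genes rose. In soleus ERRbeta/ERRgamma dmKO, where 3.16% of all genes rose, Eif5a (0.20), Bop1 (0.82) and 12 of 37 proteasome genes rose.

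Some markers of satellite cells and new muscle fibres rose beside the ERRalpha/ERRgamma result, and no fibroblast or leukocyte marker passed the test. Of 10 markers of satellite cells and new muscle fibres, 2 rose in EDL, Myog (2.20) and Myf6 (0.99), both muscle transcription factors. In soleus 4 rose, among them Myh8 (3.63) and Myh3 (2.67), the perinatal and embryonic myosins. The summed linear signal of this list was 118 to 150 in EDL knockouts against 65.2 to 81.2 in wild types, and 143 to 203 against 94.2 to 98.8 in soleus. The sums of this list also lay apart in EDL ERRalpha mKO (88.1 to 104 against 62.4 to 69.9). The same held in soleus ERRbeta/ERRgamma dmKO (119 to 189 against 72.4 to 89.3). They overlapped in EDL ERRbeta/ERRgamma dmKO and soleus ERRalpha mKO, so higher sums were not particular to the ERRalpha/ERRgamma class. Of 14 fibroblast markers none passed, with sums of 625 to 852 against 453 to 617 in EDL and 952 to 1100 against 460 to 933 in soleus. Of 12 leukocyte markers tested none passed, with sums of 36.9 to 95.7 against 36.6 to 103 in EDL and 120 to 162 against 70.7 to 107 in soleus. The part of these markers in the ribosomal protein result was not tested.

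Between wild-type muscles, 9 libraries each, 36 of the 78 genes were higher in soleus and 7 lower, where 30.8% of all genes were higher and 23.6% lower. The median difference was 0.11 (1.08-fold) against 0.08 over all genes. With libraries recentred on their mean the split became 21 higher and 12 lower (median 0.02), and recentred on their median 28 and 10 (0.05). The groups did not overlap for 3 higher genes and 1 lower one, against 9% and 8.96% of all genes. Leukocyte markers (7 of 12) and fibroblast markers (5 of 14) were also higher in soleus, with 1 fibroblast marker lower. The fibroblast count is near the 30.8% of all genes, and the part of these markers was not tested.

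Within that spread single genes stood far out. Rpl3 (chr15:80077791-80091868, minus strand) had a lowest, median and highest signal of 4.38, 4.62 and 5.31 in EDL and 5.03, 5.57 and 6.04 in soleus, a rise of 0.88 (SE 0.14, adjusted p 5.23e-06, 1.84-fold) with overlapping ends. Rps13 ran at 7.11, 7.30 and 7.44 in EDL and 7.67, 7.94 and 8.17 in soleus, so that every soleus library lay above every EDL library (0.68, SE 0.05, adjusted p 5.28e-12). Rps19, the small-subunit protein most often mutated in Diamond-Blackfan anaemia, ran at 5.80, 5.98 and 6.37 in EDL and 6.38, 6.55 and 6.98 in soleus, and the groups met without overlapping (0.53, SE 0.07, adjusted p 5.88e-07). The small-subunit genes that followed were Rps10 (0.40, adjusted p 4.73e-07) and Rps15a (0.39, adjusted p 1.88e-06).

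Rpl3l (chr17:24727820-24736143, plus strand) went the other way, at 6.94, 7.06 and 7.27 in EDL and 6.53, 6.68 and 6.77 in soleus. It was lower in every soleus library than in any EDL library (-0.41, SE 0.05, adjusted p 2.87e-08). Rps26 was also lower in soleus, at 7.34, 7.56 and 7.76 against 7.70, 7.79 and 8.01 (-0.30, adjusted p 4.42e-05). Rpl4 ran at 8.32, 8.42 and 8.55 in EDL and 8.04, 8.21 and 8.32 in soleus, with ends that touched (-0.23, adjusted p 5.27e-06). Rps27l (-0.23, adjusted p 0.00302) and Rplp1 (-0.15, adjusted p 0.0440) completed the 5 largest falls, and the call of Rplp1 was lost without any 1 of 10 of the 18 libraries, 6 of EDL and 4 of soleus (-0.16 to -0.13). Rplp0 differed by 0.11 (adjusted p 0.0141) and lost its call under both recentrings, and Rpsa differed by 0.04 (adjusted p 0.548).

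The muscle differences of the leading genes held the same sign in the wild types of each class. For Rpl3 they were 1.10 in the ERRalpha, 0.89 in the ERRbeta/ERRgamma and 0.64 in the ERRalpha/ERRgamma class. For Rpl3l they were -0.37, -0.51 and -0.33, and for Rps13 0.63, 0.73 and 0.67. For Rps19 they were 0.60, 0.54 and 0.44, and for Rpl4 -0.27, -0.15 and -0.27. The median over all 78 genes was less even, at 0.17, 0.12 and 0.04, with 63, 62 and 50 genes higher in soleus.

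**Figure D4:**
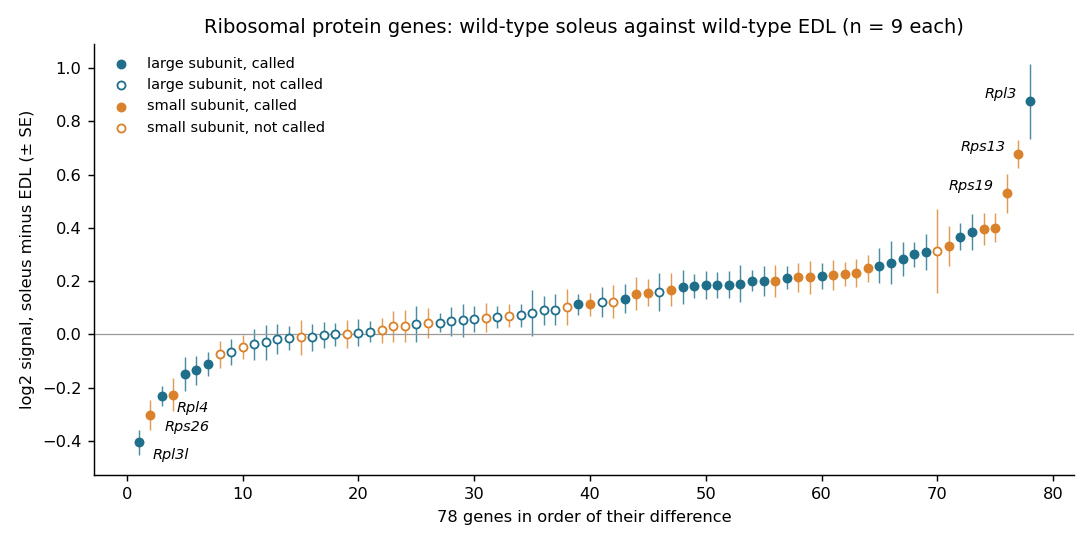
Wild-type soleus minus wild-type EDL (log2) for each tested gene, in order of the difference, with filled points for genes past adjusted p 0.05 and bars for the standard error. Rpl3 lies at one end at 0.88 and Rpl3l at the other at -0.41.

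The Rpl3 pair was read as the log2 difference Rpl3l minus Rpl3 within each library. This cancels a shift common to all genes of a library, but not an effect of the quantile normalization that depends on signal level. It was 2.34 ± 0.42 (SD, n = 9; 1.69 to 2.81) in wild-type EDL and 1.06 ± 0.34 (SD, n = 9; 0.50 to 1.66) in wild-type soleus. The ranges did not overlap, and soleus was lower by 1.28 (SE 0.18). The exact permutation p (both tails) was 4.11e-05, the smallest that these group sizes allow, and 0.000288 after Benjamini-Hochberg adjustment over 7 comparisons. In the 7 wild-type animals that gave both muscles the mean difference was -1.33, negative in each (-1.69 to -0.71, exact sign-flip p 0.0156). It was negative as well in all 14 such animals of any genotype (-3.23 to -0.66). By class of wild types the values were -1.47, -1.40 and -0.97.

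Both genes contributed. Rpl3 group means lay lower in every EDL group than in every soleus group of the same class and genotype, and Rpl3l group means ran from 6.90 to 7.18 in EDL and from 6.64 to 6.83 in soleus. In EDL, Rpl3 read 4.38, 4.62 and 4.78 in ERRalpha wild types, 4.39, 4.46 and 4.44 in ERRbeta/ERRgamma wild types and 5.03, 5.31 and 5.10 in ERRalpha/ERRgamma wild types. The last group did not overlap the other EDL wild types. In soleus it read 5.56, 5.48 and 6.04, then 5.35, 5.57 and 5.03, then 5.95, 5.66 and 5.77, in the same order of classes. The ERRbeta/ERRgamma and ERRalpha/ERRgamma wild types did not overlap there, and the ERRalpha wild types overlapped both.

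The knockouts could not pass a test on this pair, since with 3 libraries against 3 the smallest exact permutation p is 0.1. The shift in Rpl3l minus Rpl3 was 0.19 (EDL ERRalpha), -0.04 (EDL ERRbeta/ERRgamma), -0.28 (EDL ERRalpha/ERRgamma), 0.38 (soleus ERRalpha), -0.46 (soleus ERRbeta/ERRgamma) and -0.08 (soleus ERRalpha/ERRgamma). Exact permutation p-values ran from 0.2 to 0.9 and adjusted ones from 0.467 to 0.9. In EDL ERRalpha/ERRgamma the pair stood at 1.69 to 1.95 in the wild types and 1.33 to 1.70 in the knockouts, with ends that met. Rpl3 in the ERRbeta/ERRgamma knockout soleus read 6.80 in replicate 1 and at most 5.63 in the others. Replicate 1 is the library with the high leukocyte markers, where Rpl3l was 6.41 and so below Rpl3. Without that library the shift there was 0.17.

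**Figure D5:**
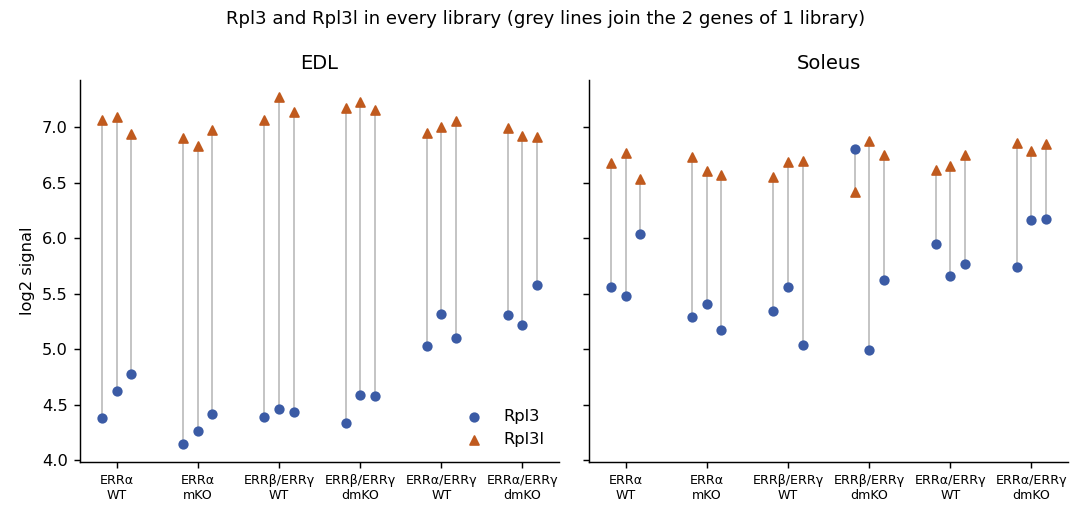
Rpl3 and Rpl3l log2 signals in each of the 36 libraries, by group. Rpl3l lies above Rpl3 in every library except replicate 1 of soleus ERRbeta/ERRgamma dmKO, where they read 6.41 and 6.80, and the gap is wider in EDL.

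The large-subunit and small-subunit genes moved alike. The large-subunit mean minus the small-subunit mean was between 0.03 and 0.17 in all 36 libraries, 0.11 ± 0.03 (SD, n = 9) in wild-type EDL and 0.07 ± 0.02 in wild-type soleus. The knockout changed this difference by 0.02, -0.00 and 0.02 in the EDL of the ERRalpha, ERRbeta/ERRgamma and ERRalpha/ERRgamma classes and by 0.01, 0.02 and -0.00 in soleus. In soleus ERRalpha/ERRgamma dmKO, 35 of 47 large-subunit and 21 of 31 small-subunit genes rose, with medians of 0.38 and 0.36. In soleus ERRalpha mKO the medians were -0.12 and -0.15. Between wild-type muscles the difference changed by -0.04, with 20 large-subunit genes higher in soleus and 5 lower (median 0.09) and 16 small-subunit genes higher and 2 lower (median 0.15).

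Across the 12 group means, the pattern of a gene was compared with that of the median gene by Pearson's r, as a description of points that share libraries and classes. The median r was 0.94, and 67 of the 78 genes had an r above 0.8. Rpl11, which with Rpl5 binds Mdm2, and Rps23, a protein of the decoding centre, were most alike at 0.996 each. The 3 least alike were Rpl3l (-0.14), Rps6 (0.52) and Rpl4 (0.59). Rpl3 followed at 0.61. Rpl3l and Rpl4 are among the 7 genes that were lower in wild-type soleus than in wild-type EDL.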

How the data were processed

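Total RNA from 36 muscles was made into directional libraries from 400 ng with 10 PCR cycles, per the labels' protocols. The authors deposited a table of log2 signals, quantile normalized per the file name, and the submitters' processing notes name Partek 6.6, GRCm38.p6 and mm10. No source used here gives the aligner, the annotation or how reads shared by similar genes were counted. No counts are held, so depth and counting error are unknown. Columns were matched to groups by muscle, class letters and an FXp or FX- mark, read as floxed with or without Cre. Of 45802 rows, 27904 held no value and 25 held values under symbols turned into dates and were left out, leaving 17873 genes.

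Genes whose mean signal lay above the 25th percentile (log2 -5.24, missing values set to the lowest value, -8.21) were kept, 13404 in all. Missing values stayed missing in the fit. limma 3.58.1 with an intensity trend (R 4.3.3) was fitted with 1 mean for each of 12 groups, and p-values were adjusted by Benjamini-Hochberg over all genes tested in each of 16 contrasts, at 0.05. Changes are differences of log2 signals. Shares of all genes called are from the fit on all libraries as deposited, at the adjusted threshold. Counts at an unadjusted p, with recentred libraries or with a library left out have no such share beside them. The fit was tested on simulated data. Rpl3l minus Rpl3 was compared by exact permutation tests (scipy 1.17.1, Python 3.11.15, numpy 2.4.6, pandas 2.3.3), two-sided.

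Column names gave 22 animals, 14 with both muscles, and values of the same animal correlated at 0.13. Replicates are named in the text by their order within a group, which pairs nothing. Alternatives were the low-signal filter, missing values, recentred libraries, only the libraries compared, no trend, library weights, the animal as a block and each library left out. The members, gene lists and tests were chosen with earlier results of these data known. Named members were Rpl3, Rpl3l, the copies, Rplp0 and Rpsa, the 5 largest rises and falls called per comparison or the lowest p, and the extremes of level, muscle difference and likeness. Genes of other lists are up to 3 called with the lowest p. A gene that this rule names in EDL ERRbeta/ERRgamma dmKO is not reported here. Start sequences came from RefSeq (GRCm38.p6) and gene positions from GENCODE vM21.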

Additional observations from a re-analysis of the deposited data

Results flagged for a closer look

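Rps13, a small-subunit protein, was picked out because its ERRalpha/ERRgamma change differed between the muscles by a test of the difference itself. Its soleus change minus its EDL change was -0.49 on the log2 scale (SE 0.13, limma adjusted p 0.0381, interaction contrast), with a rise of 0.57 in EDL and a change of 0.08 in soleus. All 3 EDL knockouts lay above their wild types, and the soleus groups overlapped. No other ribosomal protein gene was called in this contrast, where 2.07% of all genes were called in either direction. The adjusted p of Rps13 ranged from 0.00610 to 0.117 over the alternatives and left-out libraries. As given above, its call was lost when most of the libraries were left out singly. In wild types Rps13 was 0.68 higher in soleus than in EDL.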

How the results depend on the processing

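The depth is unknown and single genes in groups of 3 carry few degrees of freedom, so a missed threshold shows no equality. Of the results that answer a comparison, 392 recomputed values were classed as the same, 48 as moved and 3 as reversed. Counts of genes have no direction and were judged by the size of their change. For named genes, 39 recomputed values lost a call, 8 gained one and 979 stayed as they were, called or not called. The named genes include some that were not called to begin with, such as Rpl3 in the knockout comparisons. The animal as a replicate block left 72 genes called in EDL and 55 in soleus for the ERRalpha/ERRgamma knockout, 43 between wild-type muscles, and 39, 28 and 51 for its EDL differences from ERRalpha and ERRbeta/ERRgamma and its soleus difference from ERRalpha, and changed no count by over 1.5 times.

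The count in EDL ERRalpha mKO was 0 with only the compared libraries and 3 with library weights. In soleus ERRbeta/ERRgamma dmKO it was 0 under both recentrings, with only the compared libraries and with no trend. The soleus-minus-EDL ERRalpha/ERRgamma count was 2 and 3 when recentred on the mean and median, 0 with no trend and 4 with weights. The ERRalpha/ERRgamma difference from ERRbeta/ERRgamma in EDL gave 54 with only the compared libraries and 52 with weights, and in soleus 0 and 10. Its soleus difference from ERRalpha gave 28 recentred on the mean, and the soleus ERRbeta/ERRgamma difference from ERRalpha gave 1 with weights. The large-minus-small change, taken from medians over genes, was 0.094 (EDL ERRalpha), -0.044 (EDL ERRalpha/ERRgamma), -0.017 (soleus ERRalpha) and -0.057 (soleus ERRbeta/ERRgamma). Apart from the fits on fewer libraries, the cause was not tested.

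With each library left out in turn, the counts ran from 65 to 71 (EDL ERRalpha/ERRgamma), 35 to 60 (soleus ERRalpha/ERRgamma), 0 to 39 (soleus ERRbeta/ERRgamma) and 37 to 43 (wild-type muscles). They ran from 21 to 41 and 18 to 27 for the EDL ERRalpha/ERRgamma difference from ERRalpha and from ERRbeta/ERRgamma, 29 to 54 and 1 to 14 for those in soleus, and 0 to 33 for the soleus ERRbeta/ERRgamma difference from ERRalpha. The shift of Rpl3l minus Rpl3 ran from -0.12 to 0.011 (EDL ERRbeta/ERRgamma), -0.96 to 0.17 (soleus ERRbeta/ERRgamma) and -0.23 to 0.016 (soleus ERRalpha/ERRgamma), and so changed sign in those 3. It ran from -1.36 to -1.21 between wild-type muscles. In the pairing by animal that difference was -1.33.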
